A study of Drosophila melanogaster with 91 samples.

Results

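The transcripts of the 5 youngest and the 7 oldest embryos of a Drosophila melanogaster time course were set against each other, 12 of 91 single embryos in all. The early group held the embryos labelled -15, 0, 15, 30 and 45 min, and the late group those labelled 1245 to 1335 min at 15 min steps, both counted from cellularization. Cellularization is the step at which membranes grow in and enclose the nuclei of the embryo's surface layer. The 17 embryos labelled 240 to 480 min served as the middle of the course. Each time point was a single embryo. All embryos were handled alike: their chorions were removed with bleach, they were stuck to a cover slip and kept at 25 °C, and they were frozen when the wanted time after cellularization was reached. The labels give no strain, sex or mother, and they name no treatment, so the groups differ by age alone as far as the labels go. The early libraries were sequenced in pool 4 on lane 3 and the late libraries in pool 7 on lane 4, so age cannot be told apart from pool and lane between them.

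Genes were sorted by level, in counts per 1000000 gene counts (CPM). Early-only genes averaged at least 10 CPM in the early group with a count in each of its embryos, and averaged under 1 CPM in the late group. There were 351 of them among 15682 gene identifiers (2.24%). Late-only genes met the same rule the other way round, and there were 1245 (7.94%). Genes high at both ends averaged at least 50 CPM in both groups and under 10 CPM in the middle embryos, and there were 53 (0.338%). Because these levels chose the genes, the early and late levels of the members are given as a description with no test. Tests are given for embryos or measures that the rule did not use. The count asked for in each embryo still limits the slopes that a member can have within its group.

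A fly egg is loaded by its mother's nurse cells with RNA that directs the first nuclear divisions, the axes and the germ line. The zygotic genome is switched on broadly around cellularization, while many maternal transcripts are degraded. By the end of embryogenesis the animal is a larva ready to hatch, with a chitinous cuticle, contracting muscle, a working nervous system and a gut about to receive food.

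The early libraries held 1213557 to 2687595 gene counts and the late ones 1193766 to 3097439. Spike-in transcripts, synthetic RNAs added to the samples, took 3.07% to 4.88% of the reads on genes and spike-ins together in early embryos and 4.12% to 7.01% in the late ones. The median Spearman correlation of an embryo with the others of its group was 0.91 to 0.95 in the early group. In the late group it was 0.77 to 0.86 for 6 embryos and 0.70 for the one labelled 1260 min. Marker genes followed the labels in the early group: osk ranged from 567.8 to 734 CPM there. The mother's follicle and yolk protein markers Yp1, Yp2, Yp3, Cp36, Cp18 and Vm26Aa were at 0 in all 5 early embryos. The late group held the muscle markers Mhc, at 1119 to 2860 CPM, and the neuronal marker nSyb, at 143 to 270 CPM. Its cuticle markers were summed to 4746 to 19204 CPM in 6 embryos and to 109 CPM at 1260 min. Outside the 12 embryos, the share of gene counts on late-only genes stood apart from neighbouring times in the embryos labelled 225, 405 and 540 min, where it was high. It was low at 1005, 1050 to 1110, 1155, 1170 and 1200 min, with 1.58% to 6.75% of counts, and in the shallow library at 825 min, with 0.200% between 22.8% at 810 and 18.9% at 840 min. Whether these embryos had the labelled age was not tested.

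**Figure D1:**
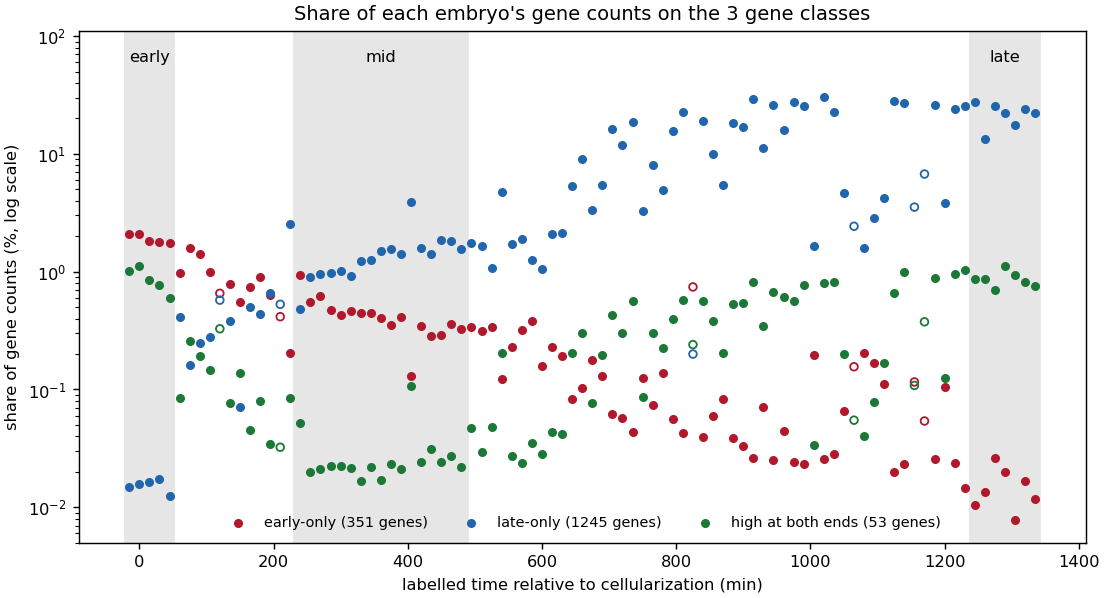
Percent of gene counts (log scale) that fell on the early-only, late-only and both-ends gene classes in each of the 91 embryos, against labelled time; grey bands mark the early, mid and late groups and open circles the 6 shallow libraries, whose gene counts were under the median of 1644069 divided by 3. The both-ends class starts at 0.596% to 1.12%, lies at 0.0168% to 0.107% in the middle band and is back at 0.701% to 1.12% in the late band.

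More genes were detected late than early. After every library was thinned to 1193766 counts, 6970 ± 177 genes (SD, n = 5) had at least 1 count in the early embryos and 8770 ± 618 (n = 7) in the late ones, a difference of 1800 genes. Each late embryo was above each early embryo, and the exact two-sided permutation p was 0.00253, the smallest that 5 against 7 embryos allow. Early-only genes took 1.91% ± 0.164 of gene counts in early embryos, 0.429% ± 0.173 (n = 17) in the middle and 0.0151% ± 0.00622 late. Late-only genes took 0.0154% ± 0.00191 early, 1.44% ± 0.737 in the middle and 21.8% ± 4.82 late.

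**Figure D2:**
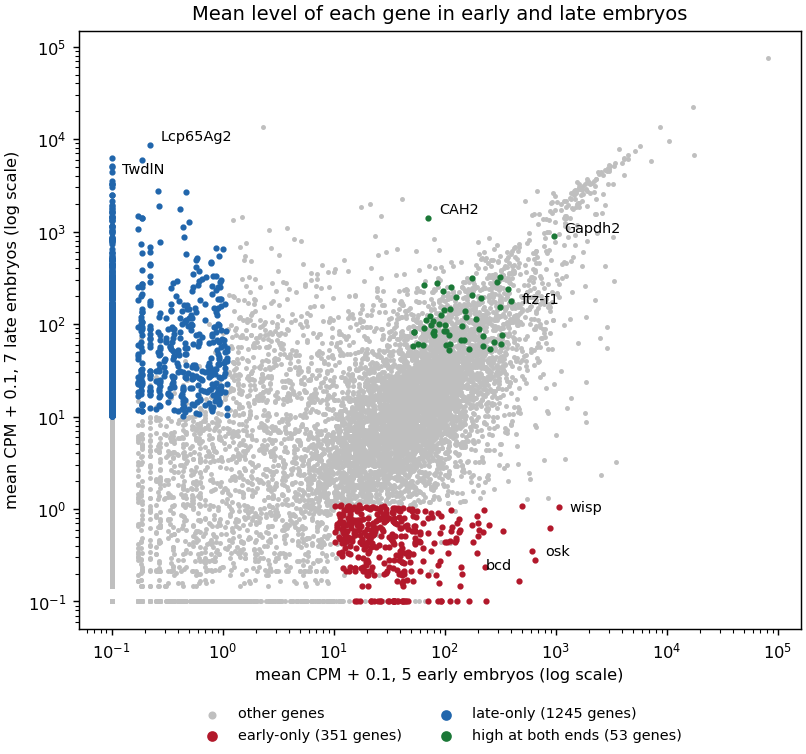
Mean CPM plus 0.1 of each gene in the 5 early embryos (x axis) and the 7 late embryos (y axis), both on log scales, with the 3 gene classes in colour. The 351 early-only genes lie along the bottom, the 1245 late-only genes along the left edge and the 53 genes high at both ends in the upper right.

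The early-only genes held well-known products of oogenesis. The gene with the highest early mean was wisp, which encodes the cytoplasmic poly(A) polymerase that extends maternal mRNA tails at egg activation. Its 5 early values were 973, 1065, 1101, 1014 and 1207 CPM, and its late values ran from 0 to 4.20 CPM with a median of 0. BigH1, the linker histone of the early embryo, had 835, 1185, 920, 960 and 550 CPM early and at most 2.01 CPM late. For both genes the groups were far apart, which the rule for the class asks for, and BigH1 was lowest in the 45 min embryo.

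Transcripts of the axis determinants belonged to the same class. The germ plasm organizer osk had 689, 642, 734, 606 and 567.8 CPM early, and 1 of 7 late embryos had any count. The anterior determinant bcd had 536, 208, 441, 551 and 590 CPM early and a single count over all late embryos. For swa, whose product helps to anchor bcd RNA in the oocyte, the early values were 187, 281, 237, 199 and 272 CPM and the late group had no count. Against a floor of 3 counts over the late group, the swa mean of 235 ± 42.2 CPM was at least 1078-fold higher early. Other members were exu, also needed to place bcd RNA, at 206 ± 249 CPM, the terminal receptor kinase tor at 182 ± 35.3 CPM and nanos, the posterior determinant, at 176 ± 56.7 CPM. Of these, exu fell steeply with labelled time inside the early group, with values of 284, 608, 94.8, 32.9 and 9.06 CPM.

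Meiosis and the first divisions supplied further members. The early means were 609 ± 94.4 CPM for gnu and 144 ± 40.0 CPM for plu, both partners of the PAN GU kinase that drives the first cycles. They were 333 ± 124 CPM for mtrm, an inhibitor of Polo kinase in the oocyte, and 231.6 ± 115 CPM for fs(1)Ya, a nuclear envelope protein of the egg. The maternal alpha-tubulin alphaTub67C had 875, 1038, 268, 202 and 101 CPM, so that its early mean of 497 ± 428 CPM came mostly from the embryos at -15 and 0 min. Further members were orb at 251 ± 44.0 CPM, an RNA-binding regulator of translation, Gcna at 226 ± 148 CPM, a germ-cell nuclear protein, and zpg at 223 ± 34.7 CPM, the gap junction protein of the germ line. The boundary of the class was set by level. alphaTub67C, at 0.99 CPM late, and cid, at 0.976 CPM, lay just inside it, and Scm (1.01 CPM late) and Rad9 (1.03 CPM late) just outside. dhd, the thioredoxin of the egg, had 2561 ± 2128 CPM early and 2.25 CPM late and therefore stayed outside. So did yl, the yolk protein receptor of the oocyte, with 851 ± 446 CPM early and 1.22 CPM late.

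Most early-only genes already had a sizeable level in the embryos at -15 and 0 min. Of the 351, 331 averaged 10 CPM or more there, and 20 averaged 1 to under 10 CPM. The rule asked for a count in each early embryo, so these numbers are in part fixed. Genes at 0 CPM at -15 and 0 min could not be members. Examples were nullo, with means of 126 CPM early and 0 late, and bnk, with 75.1 and 0.115 CPM. The label 0 min is also cellularization itself, so presence before the zygotic genome was broadly on was not tested. The 20 genes included term, a zygotic gene of the blastoderm, with 4.37, 5.95, 111, 123 and 727 CPM, and SNCF with 0.437, 4.46, 69.5, 114 and 486 CPM. Brd, a zygotic inhibitor in the Notch pathway, was at 64.8 CPM at 15 min, 22.2 CPM at 45 min and 450 CPM on average in the middle embryos. By 240 to 480 min, 41 of the early-only genes averaged under 1 CPM, 195 averaged 1 to under 10 CPM and 115 still averaged 10 CPM or more. CycB3 and CycB, mitotic cyclins of the maternal cell cycle list, fell outside the class and averaged 848 and 432 CPM in the middle.

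Within the early group the slope of each gene on labelled time was tested in 6487 genes with edgeR's quasi-likelihood F-test. The sorting did not use the slope itself, but it asked early-only genes for a count in each early embryo. At an adjusted p under 0.05, 58 rose (0.894%) and 244 fell (3.76%). The zygotic genes of cellularization rose in 9 of 11 tested members with none falling, and the gap and pair-rule genes in 5 of 11 with none falling. nullo, which keeps the furrows stable, had 0, 0, 88.8, 150 and 390 CPM, a slope of 2.22 ± 0.40 (SE) log2 per 15 min with adjusted p = 0.0108. The actin regulator bnk had 0, 0, 62.2, 80.2 and 233 CPM and a slope of 2.06 ± 0.39 (edgeR adjusted p = 0.0151). dunk, another cellularization gene, had 0, 0, 86.6, 36.5 and 441 CPM, halo, a regulator of lipid droplet transport, 2.62, 0, 76.8, 56.3 and 486 CPM, and Bro, a partner of the Runt transcription factors, 0, 0, 85.8, 86.2 and 220 CPM. All of them were at or near 0 at -15 and 0 min. Among the falls were DppIII, a dipeptidyl peptidase, with 222, 301, 40.7, 16.8 and 0 CPM, and sut1, a sugar transporter, with 209, 183, 39.5, 10.8 and 0 CPM. Pgi, an enzyme of glycolysis, had 305, 321, 68.2, 33.5 and 0.824 CPM with a slope of -1.52 ± 0.23 (edgeR adjusted p = 0.00606), and in ebd1, P32 and yata each value from 15 min on was below both earlier ones. Early-only genes held 20 of the falls and 5 of the rises, but genes at 0 in any early embryo could not be members. These calls rested on the embryo at 45 min: without it 0 genes rose and 2 fell by the same test, with 718 genes at an unadjusted p under 0.05.

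The design's main comparison, late against early, tested 7873 genes with edgeR's quasi-likelihood F-test. It called 3140 genes higher late (39.9%) and 1828 lower (23.2%), with a median log2 fold change of 0.31 over all tested genes. On plain CPM, every early embryo was above every late embryo for 3262 genes (41.4%) and every late embryo above every early one for 1739 (22.1%). The TMM scaling used in the test aligns the bulk of genes between libraries, and plain CPM does not. With libraries scaled by total gene counts alone 2259 genes rose and 4031 fell, with a median of -1.21. Scaled by spike-in counts 2012 rose and 4470 fell, with a median of -1.74. The median fold change of each list described below kept its sign under all 3 scalings unless stated. The 10 largest rises and the 10 largest falls among the genes eligible for naming were members of the late-only and early-only classes, respectively. The classes were chosen on the same early and late levels, so this is no separate result.

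Gene lists of the egg and of dividing nuclei were lower late. In the list of maternal axis and germ plasm genes 18 of 25 tested members fell and 2 rose, with a median log2 fold change of -4.06. Neither rise was called with spike-in or total scaling. Of the 25, 9 averaged under 1 CPM late and passed the count filter through their early level, and 9 list genes were early-only. The number fallen is therefore in part fixed by the choice of genes. In the maternal cell cycle list 20 of 23 fell and 1 rose, with a median of -4.53, and 3 of the 23 averaged under 1 CPM late. CycB3, a mitotic cyclin, had 3515, 3234, 3811, 3469 and 3402 CPM early and a late range of 0 to 13.5 CPM with a median of 0.403 (log2 -8.65 ± 0.97, edgeR adjusted p = 2.93e-06). polo, the mitotic kinase, went from 280 ± 53.0 to 1.53 ± 1.28 CPM (log2 -5.88 ± 0.56, edgeR adjusted p = 6.63e-07). All 17 tested genes of DNA replication fell, with a median of -3.89, and 2 of them averaged under 1 CPM late. Mcm2, a subunit of the replicative helicase, went from 314 ± 32.9 to 3.84 ± 2.80 CPM, and its late values did not overlap the early ones. It was named for its large change, so the lack of overlap is a description. In contrast to the axis genes, replication genes were kept up in the middle, where 2 of 19 rose and 3 fell against early (all genes 29.4% and 19.5%), and all 19 were lower late than mid (all genes 24.5% lower). The summed level of the replication list was 3189 to 5125 CPM early, 953 to 4708 CPM in the middle and 19.8 to 175 CPM late. In bulk embryos, fewer dividing cells and less RNA per cell cannot be told apart.

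The list of early chromatin and genome activation genes fell in 13 of 16 tested members, with 2 rises. Of the 16, 3 averaged under 1 CPM late and passed the filter through their early level. dhd led with 3992, 5494, 1339, 1714 and 269 CPM early (log2 -8.49 ± 1.23, edgeR adjusted p = 2.86e-05). Elba2, a subunit of an insulator complex of the early embryo, had 201 ± 91.8 CPM early and 0.415 ± 0.714 CPM late. HmgZ, a chromatin protein of the HMG box type, went the other way, from 4.06 ± 5.69 to 106 ± 59.6 CPM, and was highest in the middle with 327 CPM. The egg activation list fell in 14 of 21 members and rose in 2, with 5 of the 21 at under 1 CPM late. Marf1, an RNA-binding protein needed in oocyte meiosis, had 786 ± 192 CPM early and 3.25 ± 5.11 CPM late. The lipid list rose in 5 and fell in 3 of 9 tested members, with a median of 1.18 that turned to -1.01 under spike-in and -0.37 under total scaling. Jabba, the protein that ties histones to lipid droplets, fell from 1119 ± 387 to 31.4 ± 27.3 CPM, while apolpp, the precursor of the main lipoprotein, rose from 2.61 ± 2.18 to 663 ± 489 CPM. The clock gene cyc, one of 5 tested clock genes, fell from 350 ± 81.7 to 7.37 ± 3.50 CPM and Pdp1 rose from 26.7 ± 11.8 to 1485 ± 664 CPM.

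Among the 1245 late-only genes were 22 of the cuticle list, 14 of the muscle list, 22 of the neuron list and 13 of the chitin list. The highest late mean was that of the larval cuticle gene Lcp65Ag2, with a lowest value of 71.5, a median of 9238 and a highest of 15110 CPM late and 1 count over the early group. Lcp65Ag3 had 16.7, 5438 and 9370 CPM and TwdlN, of the Tweedle cuticle family, 20.7, 4300 and 13155 CPM, each with no early count. Against the floor of 3 counts over the early group their late means were at least 16786-fold and 17236-fold higher. Reads of the near-identical Lcp65Ag copies could be divided between them by the counting, so single-copy values are uncertain. Cpr47Eg, another cuticle gene, had 22.2, 4579 and 5334 CPM. In the cuticle list 22 of 48 genes in the table were late-only. The 24 that passed the count filter averaged under 1 CPM early and passed through their late level, so their number risen says nothing. The summed level of the list was 0 to 0.599 CPM early, 11.1 to 85.1 CPM in the middle and 12044 to 62125 CPM late.

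Muscle genes formed another large group. Mlc2, a myosin light chain, had 1703, 5044 and 6069 CPM as lowest, median and highest late values, none early and 12.7 CPM on average in the middle. up, the troponin T gene, had 991, 2973 and 3878 CPM, and Mf (myofilin) 76.3, 3414 and 4434 CPM. Mp20, a calponin-like muscle protein, had 140, 2688 and 4980 CPM, and bt, the giant protein projectin, had 817, 1214 and 3089 CPM. Of the muscle list 14 of 24 genes were late-only. Of 20 tested, 19 rose with none falling under TMM and 1 falling under both other scalings, but 14 averaged under 1 CPM early and passed the filter through their late level. The list summed to 286 to 465 CPM early, 335 to 4621 CPM in the middle and 18539 to 59554 CPM late. No value of a late embryo overlapped an early one for these 5 genes, but they were chosen on these levels, so this is a description.

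Among neuronal genes 22 of 32 were late-only. Of the 32, 31 rose and none fell under TMM, with 1 falling under the other scalings; 22 averaged under 1 CPM early. nSyb, the synaptic vesicle protein synaptobrevin, was at 0 in every early embryo and had 143, 178 and 270 CPM late. Gad1, the enzyme that makes GABA, had 73.9, 106 and 127 CPM and Frq1, a calcium sensor of the synapse, 176, 262 and 322 CPM. Their spread was small beside that of the cuticle genes. Of 28 neuropeptide and peptide-processing genes 11 passed the count filter, 8 of them at under 1 CPM early, and the list summed to 0 to 19.8 CPM early and 131 to 761 CPM late. amon, a prohormone convertase, had 11.1, 19.7 and 36.5 CPM late. Of 12 glial genes 9 were tested and rose under TMM, 5 of them at under 1 CPM early, among them alrm, a marker of astrocyte-like glia, with 68.8, 95.3 and 144 CPM. In the middle against early, 9 glial genes were tested and all 9 rose (all genes 29.4%). Genes low early could pass that filter through their middle level, so this number is in part fixed. From mid to late 5 of 11 rose and 1 fell (all genes 31.8% and 24.5%).

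Chitin and matrix genes were also among the members, with 13 of 22 of the chitin list late-only. All 21 tested genes of that list rose under TMM and 17 under spike-in scaling, but 14 averaged under 1 CPM early. obst-A, a chitin-binding protein, had a late median of 102 CPM and a highest value of 2047 CPM. Col4a1, a chain of type IV collagen made by hemocytes and fat body, had 492, 1829 and 4219 CPM late, none early and 20.0 CPM on average in the middle. Its partner vkg had 85.0, 261 and 487 CPM. Fst, a gene known from cold stress, had 132, 2216 and 4382 CPM. Of the tanning list, which serves the hardening and colouring of the cuticle, 8 of 9 tested of 14 rose and 1 fell, with 7 of the 9 at under 1 CPM early. ple, the tyrosine hydroxylase, had 19.7, 36.5 and 404 CPM, and Ddc, the dopa decarboxylase, 11.3, 26.0 and 62.5 CPM. In the digestive list 15 of 36 genes passed the filter, 14 of them at under 1 CPM early, and the list summed to 147 to 277 CPM early and 527 to 17086 CPM late. Chaperone genes went both ways. l(2)efl, a small heat shock protein of muscle, with 30.8, 58.8 and 259 CPM, and stv, a co-chaperone, with 107, 200 and 266 CPM, were at 0 in each early embryo. The small heat shock genes Hsp26 and Hsp27 fell from 2881 ± 1743 to 92.3 ± 152 CPM and from 1388 ± 284 to 15.6 ± 12.5 CPM (edgeR adjusted p = 0.00182 and 9.82e-07). The heat shock list as a whole rose in 5 and fell in 2 of 12 tested members, close to the shares over all genes (39.9% and 23.2%), against 4 and 5 under spike-in or total scaling; its median of 1.83 turned to -0.51 under spike-in scaling.

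Late-only genes came on at different times. By windows of labelled time without the shallow libraries, 400 of the 1245 first averaged 10 CPM at 630 to 735 min, 185 at 870 to 975 min, 105 at 750 to 855 min, 85 at 1125 to 1230 min and 39 in the late group itself. Another 197 first did so at 180 to 225 min, a window that holds the 225 min embryo, in which late-only genes took 2.56% of counts. Before that, 54 first did so at 60 to 105 min and 33 at 120 to 165 min. The remaining windows held 29 at 240 to 345 min, 55 at 360 to 480 min, 53 at 495 to 615 min and 10 at 990 to 1110 min. In the middle embryos 521 averaged under 1 CPM, 455 averaged 1 to under 10 and 269 averaged 10 CPM or more. In embryos outside the sorting, 1125 to 1230 against 495 to 615 min, 670 late-only genes could be tested with edgeR. Of these 407 rose and 1 fell, with a median log2 fold change of 2.75. By window means, the median of the 1245 was 2.98 CPM at 495 to 615 min and 35.3 CPM at 1125 to 1230 min. The count filter could thus keep members through their later level, which tilts the 407 and the 2.75 towards rises. Over all 5409 genes tested there, 21.6% rose and 11.2% fell, with a median of 0.18. The embryos at 1125 to 1230 min were in pool 7, as was the late group, and those at 495 to 615 min in pool 5. Age and pool cannot be told apart in this comparison. Without the shallow libraries and the embryos at 540 and 1200 min, 910 of 1113 tested rose and 17 fell. Without the filter all 1245 were tested, and 919 rose and none fell. Of the early-only genes 338 could be tested there without the filter, of which 39 fell and 10 rose. Of the 23 that passed the filter 14 fell and none rose, with 22 negative estimates and 1 positive. Their level in the earlier embryos could carry these 23 through the filter, so their count is a description. In the earlier held-out pair, 180 to 225 against 60 to 105 min, 2 of 251 tested early-only genes fell and none rose, against 0.222% and 0.324% of all tested genes. Their median log2 fold change was -0.77, and 175 of the 251 estimates were negative. Leaving out the shallow library at 210 min left 0 calls among all genes, with 1129 at an unadjusted p under 0.05.

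The late embryos were less alike than the early ones by the correlations given above. The embryo labelled 1260 min had the lowest late value of 391 of the 1245 late-only genes and the highest of 337. TwdlN was at 20.7 CPM there against 1769 to 13155 CPM in the other 6 embryos, and Cpr65Ax2, a cuticle gene, at 11.1 CPM against 815 to 2831 CPM. elav, a neuronal RNA-binding protein, was at 588 CPM there against 50.6 to 179 CPM elsewhere in the group. ImpL1, an ecdysone-inducible gene, was at 528 CPM at 1260 min and at most 13.0 CPM in the others; its late mean of 79.7 CPM becomes 4.92 CPM without that embryo. The genes TwdlM and TwdlB were highest at 1335 min, with 19097 and 11452 CPM against late medians of 42.9 and 47.1 CPM. Jon25Biii, a serine protease of the gut, had 3389 CPM at 1290 min and 5878 CPM at 1305 min, and between 1.59 and 54.7 CPM in the other 5. A linear slope on labelled time within the late group gave no called gene in 7243 tested by edgeR, with 126 at an unadjusted p under 0.05. This does not show that levels were steady across the late group. Leaving the 1260 min embryo out gave 3069 rises and 1878 falls late against early.

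**Figure D3:**
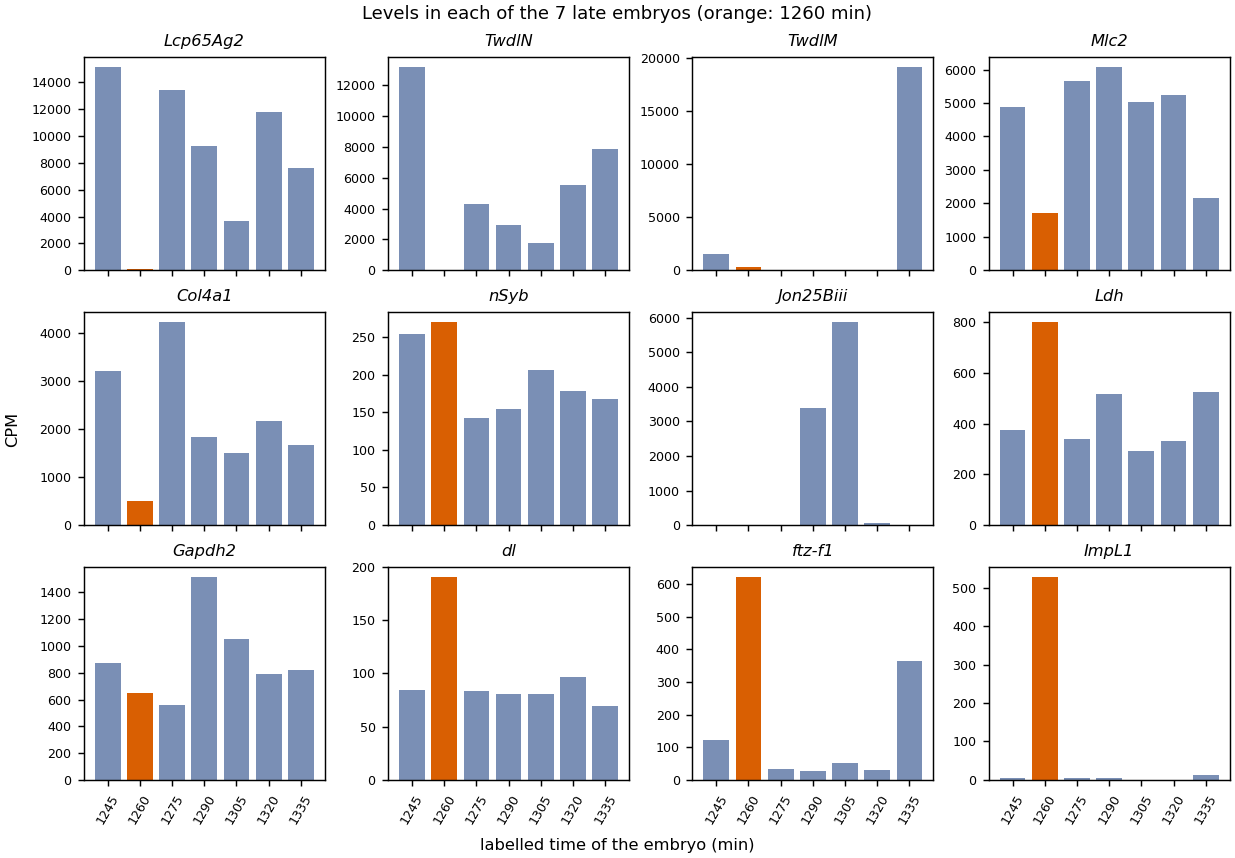
CPM (each panel with its own linear axis from 0) of 12 genes in each of the 7 late embryos by labelled time, with the 1260 min embryo in orange. Lcp65Ag2 and TwdlN are nearly absent at 1260 min, TwdlM is high at 1335 min, Jon25Biii at 1290 and 1305 min, and ImpL1 at 1260 min.

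Genes high at both ends and low between were fewer. Of 1091 genes that averaged at least 50 CPM in both groups, 53 (4.86%) averaged under 10 CPM at 240 to 480 min. As a class they took 0.872% ± 0.207 of gene counts early, 0.0292% ± 0.0216 in the middle and 0.867% ± 0.136 late. For 36 of the 53, each early and each late embryo was above each of the 17 middle embryos, which was the case for 68 of the 1091 (6.23%). The rule fixed this shape on average, so the count is a description. At the threshold, CG1927 (9.26 CPM in the middle), Vha68-2 (9.61) and Pgk (9.99) lay just inside, and Sod3 (10.2), Myd88 (10.3) and Pglym78 (10.6) just outside. With the middle embryo at 405 min left out the class held 63 genes, 52 of them shared, and with TMM-scaled CPM 58 genes, 38 of them shared.

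In the class were 5 enzymes of glycolysis, out of 13 genes of the glycolysis and lactate list. Gapdh2, a glyceraldehyde-3-phosphate dehydrogenase, had 1377, 2192, 579, 549 and 125 CPM early, 2.31 to 35.9 CPM in the middle and 556, 817 and 1516 CPM as lowest, median and highest late values. Its sister gene Gapdh1 had 405, 545, 384, 256 and 252 CPM early, at most 9.14 CPM in the middle and 82.6, 201 and 417 CPM late. Tpi, the triosephosphate isomerase, had 475, 644, 176, 155 and 31.3 CPM early, a middle median of 0 and 191, 230 and 424 CPM late. Pfk, the phosphofructokinase that commits sugar to glycolysis, was steadier early with 138, 138, 121, 110 and 126 CPM, had a middle median of 2.87 CPM and 142, 204 and 244 CPM late. Pgk, the phosphoglycerate kinase, had early values from 39.5 to 157 CPM and late ones from 73.9 to 211 CPM. The middle embryos reached 42.6 CPM for Pfk, at 405 min, which is below each early and late embryo, and 59.6 CPM for Pgk, which overlaps the early values.

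Other glycolytic genes of the list were also lower in the middle than at both ends without reaching the threshold. Against early, 10 of 13 list members fell in the middle and 1 rose (all genes 19.5% and 29.4%). From mid to late all 13 rose (31.8% of all genes). The 13 include the 5 enzymes of the class, which the rule chose for low middle levels, so these counts are in part fixed. Eno, the enolase, averaged 815 ± 114 CPM early, 44.2 ± 50.3 CPM in the middle and 624 ± 272 CPM late. Ald1, the aldolase, averaged 683 ± 84.1, 170 ± 141 and 2723 ± 543 CPM. Hex-A, a hexokinase, averaged 265 ± 27.5, 24.4 ± 33.7 and 219 ± 85.7 CPM. In 2 list members the middle mean was above the early mean. ERR, a nuclear receptor known to drive glycolytic genes, averaged 31.3 ± 32.5 CPM early, 47.4 ± 31.0 CPM in the middle and 69.4 ± 25.3 CPM late. Ldh, lactate dehydrogenase, was late-only, with 8 counts over the early group, a middle mean of 46.3 CPM and 292, 374 and 800 CPM late. The comparison of the ends themselves depended on the scaling: late against early, 13 of 13 rose under TMM, 4 rose and none fell under total counts, and 2 rose and 4 fell under spike-in scaling.

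The class held 9 further enzymes of mitochondrial and central carbon metabolism. Mdh2, the mitochondrial malate dehydrogenase, had 269, 336, 137, 80.2 and 51.9 CPM early, 8.24 CPM on average in the middle and 103, 282 and 588 CPM late. ScsbetaA, a subunit of succinyl-CoA synthetase, had 143, 134, 140, 169 and 188 CPM early and 22.2, 123 and 176 CPM late. The aspartate aminotransferases Got1 and Got2 were both members. Got1 averaged 144 ± 24.6 CPM early and 94.7 ± 49.9 CPM late, and Got2 153 ± 167 CPM and 138 ± 77.7 CPM. Pgd, an enzyme of the pentose phosphate pathway, averaged 314 ± 125, 5.27 and 154 ± 75.6 CPM at the early, middle and late stages. Pdk, the kinase that restrains pyruvate dehydrogenase, averaged 192 ± 37.1, 7.63 and 114 ± 49.0 CPM. Men-b, a malic enzyme, Aldh, an aldehyde dehydrogenase, and Mtpbeta, a subunit of the enzyme of mitochondrial fatty acid oxidation, averaged 78.5 to 151 CPM early and 67.5 to 147 CPM late.

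Genes of lipid handling and of ion and proton transport were also present. SREBP, the transcription factor of lipid synthesis, averaged 79.4 ± 54.5 CPM early and 75.9 ± 27.7 CPM late, and LpR2, a lipophorin receptor, 255 ± 40.8 and 53.3 ± 32.1 CPM. inaE, a diacylglycerol lipase, averaged 165 ± 24.6 and 53.5 ± 32.2 CPM, and Sply, the sphingosine-1-phosphate lyase, 102 ± 31.5 and 58.9 ± 26.2 CPM. The late means of LpR2 and inaE are 48.4 and 42.0 CPM without the 1260 min embryo, below the threshold of the class. Vha68-2, a catalytic subunit of the vacuolar proton pump, had 271, 323, 345, 392 and 257 CPM early and 112, 358 and 479 CPM late. CAH2, a carbonic anhydrase, was the member with the largest gain over its early level, from 71.2 ± 29.1 to 1410 ± 531 CPM. Ae2, an anion exchanger, went the other way, from 279 ± 49.5 to 63.3 ± 31.6 CPM.

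Some signalling genes, with RNA in early and again in late embryos, belonged to the class as well. spz, the ligand of the Toll receptor in dorsoventral patterning and in immunity, had 335, 262, 403, 394 and 267 CPM early, a middle median of 0.769 CPM and 41.4, 60.6 and 200 CPM late. dl, the NF-kappaB factor at the end of the same pathway, had 117, 112, 97.8, 141 and 36.3 CPM early, a middle median of 0 and 69.3, 83.3 and 191 CPM late. Spn88Ea, a serpin that restrains Toll activation, had 78.3 to 119 CPM early and 63.6, 109 and 825 CPM late. All 3 were highest late in the 1260 min embryo; without it the late means were 55.8 ± 10.7 CPM for spz and 82.6 ± 8.92 CPM for dl. ftz-f1, a nuclear receptor with a maternal and a later isoform, had 379, 356, 441, 358 and 437 CPM early, a middle median of 0 and 27.8, 50.4 and 622 CPM late. Its late values were 122 to 622 CPM at 1245, 1260 and 1335 min. Counts of 3′ ends per gene do not separate its isoforms. Idgf4, a secreted chitinase-like growth factor, rose from 115 ± 20.6 CPM early to 250 ± 89.2 CPM late, with a middle median of 1.99 CPM.

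**Figure D4:**
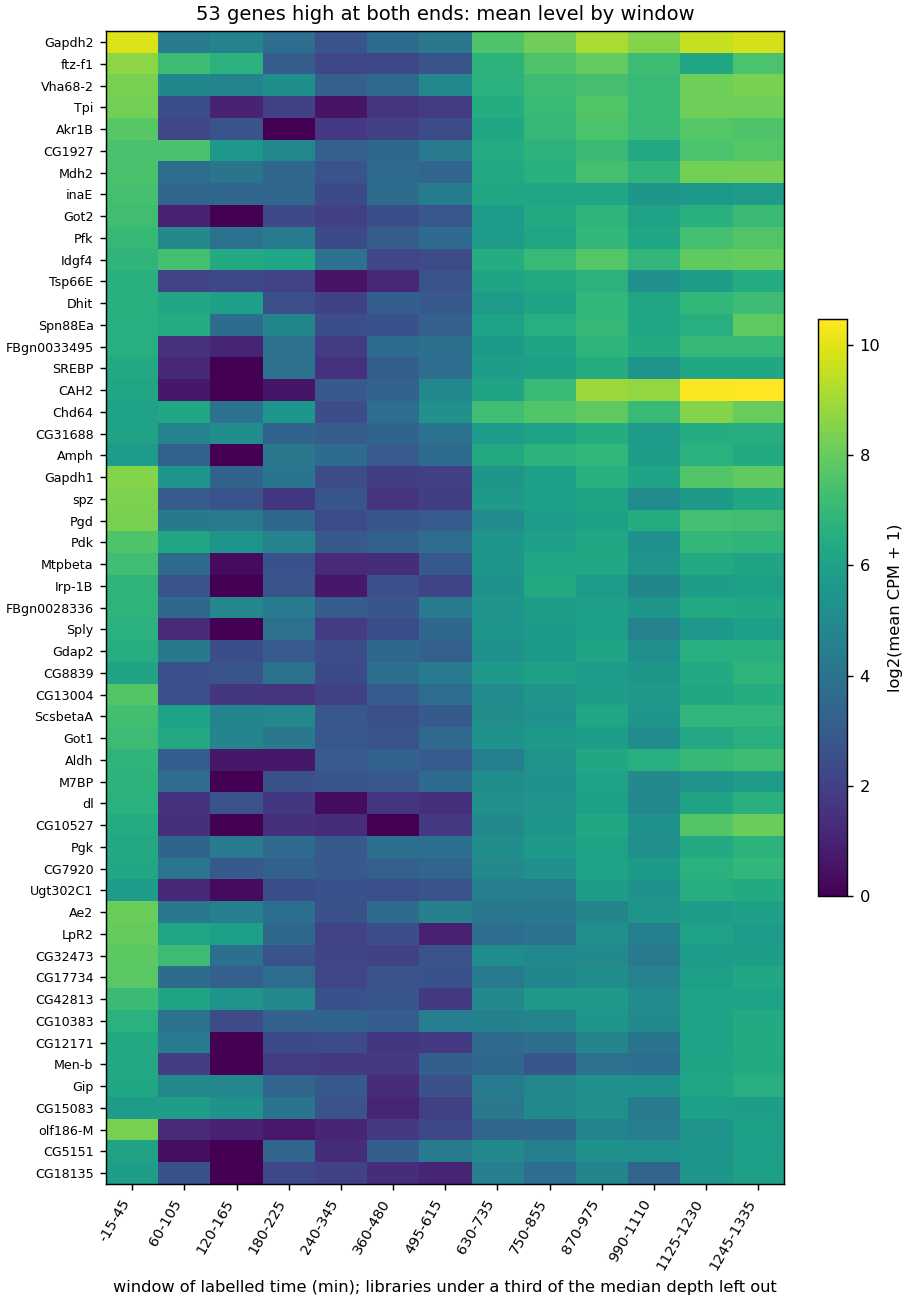
Mean level, as log2(CPM + 1), of the 53 genes high at both ends (rows) in 13 windows of labelled time (columns). Rows are grouped by the window in which they first return to 50 CPM and within it by early level. At 60 to 105 min 23 of the 53 genes are under 10 CPM and 13 at 50 CPM or more, from 240 to 615 min none is at 50 CPM, and 20 are back at 50 CPM at 630 to 735 min.

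The fall of these genes was early and their return staggered. By window means, 23 of the 53 were under 10 CPM at 60 to 105 min, 8 more at 120 to 165 min, 6 at 180 to 225 min, 15 at 240 to 345 min and 1 at 360 to 480 min. Their summed share was 0.596% of counts at 45 min, and 0.0840%, 0.259%, 0.191% and 0.146% at 60, 75, 90 and 105 min. Inside the early group 8 of the 53 fell with labelled time and none rose by edgeR (all genes 3.76% and 0.894%): Akr1B, Aldh, CG10527, Gapdh2, Got2, Mdh2, Pgd and Tpi. None of the 8 was called without the 45 min embryo. The 53 genes first came back to 50 CPM at 630 to 735 min (20 genes), 750 to 855 min (10), 870 to 975 min (10), 1125 to 1230 min (10) and in the late group itself (3). The return was not steady: 40 were at 50 CPM or more at 870 to 975 min, 21 at 990 to 1110 min and 47 at 1125 to 1230 min. The window of 990 to 1110 min holds embryos at 1005 and 1050 to 1110 min, where the class took 0.0340% to 0.199% of counts. In the held-out comparison of 1125 to 1230 with 495 to 615 min, 47 of the 53 could be tested with edgeR. Of these 46 rose, against 21.6% of all tested genes, with a median log2 fold change of 3.87. Those embryos were in pools 7 and 5, and the late group was also in pool 7, so age cannot be told apart from pool there. The filter could keep members through their later level. With no filter 52 of the 53 rose. Without the shallow libraries and the embryos at 540 and 1200 min all 53 could be tested and all 53 rose, with a median of 5.39. In the 5 embryos at 1125, 1140, 1185, 1215 and 1230 min the class took 0.657% to 1.03% of counts, and in those at 1155, 1170 and 1200 min 0.108% to 0.375%. In the other held-out pair, 180 to 225 against 60 to 105 min, 1 of 33 tested members fell (0.222% of all tested genes); 28 of the 33 estimates were negative. None was called there without the shallow library.

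Gene lists of growth and energy were high throughout, and their direction depended on the scaling. Of 58 ribosomal protein genes 57 rose late against early under TMM and 1 fell, 49 rose and 2 fell under total counts, and 4 rose and 3 fell under spike-in scaling. RpS6 had 958, 759, 1153, 849 and 1217 CPM early and 1937, 2437 and 3023 CPM as lowest, median and highest late values. RpS5a, the copy used in most tissues, went from 528 ± 116 to 2121 ± 371 CPM. Of 30 genes of oxidative phosphorylation 30 rose under TMM, 7 under total counts and none under spike-in scaling, where 1 fell. The spike-in scale measures a gene against the synthetic RNA added per sample. On it most genes were lower late, and fly counts per spike-in count were 26.2 ± 5.08 early and 18.4 ± 4.11 late. Among stress genes, Xrp1, a bZIP factor of the stress response, rose from 1.47 ± 1.02 to 491 ± 331 CPM, Atf3 from 6.18 ± 2.74 to 299 ± 126 CPM and Thor, the inhibitor of cap-dependent translation, from 24.9 ± 4.33 to 557 ± 240 CPM. The list of cell death and stress genes as a whole rose in 9 and fell in 1 of 17 tested members under TMM, and rose in 4 and fell in 5 under spike-in scaling, where its median of 1.81 turned to -0.57. Of the other lists, ecdysone genes rose in 11 and fell in 1 of 15, with 6 of the 15 at under 1 CPM early. Fat body and immune genes rose in 11 and fell in 1 of 12, with 6 of the 12 at under 1 CPM early. Tracheal and transport genes rose in 20 and fell in 1 of 22, with 8 of the 22 at under 1 CPM early. Of 20 odorant-binding genes 6 passed the filter, 3 of them at under 1 CPM early. Members at under 1 CPM early passed the filter through their late level, so these numbers risen are in part fixed. Gap and pair-rule genes rose in 4 of 8 with none falling, against 2 and 2 under spike-in scaling. Of 12 cellularization genes 3 were tested and fell, 1 of them at under 1 CPM late. Histone genes rose in 2 and fell in 3 of 6 and sex determination genes in 4 and 4 of 12, beside 39.9% and 23.2% of all genes. Tubulin and actin genes rose in 4 and fell in 2 of 8, with a median of 0.91 that turned to -1.08 under spike-in and -0.61 under total scaling.

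**Figure D5:**
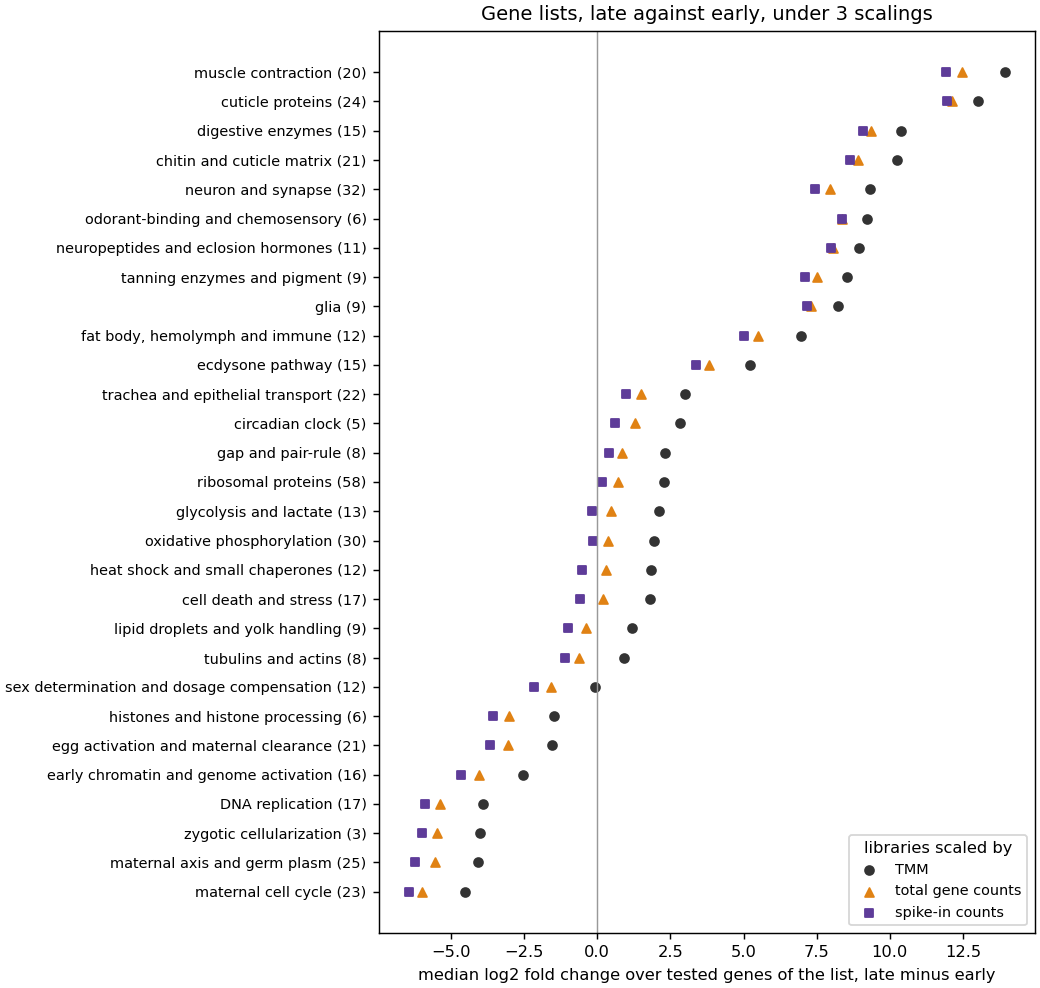
Median log2 fold change (late minus early) over the tested genes of each of 29 gene lists (number tested in brackets) with libraries scaled by TMM, by total gene counts or by spike-in counts. Muscle, cuticle, neuron and chitin lists lie far to the right under each scaling, and many of their tested members passed the filter through their late level. Maternal, cell cycle and replication lists lie to the left under each scaling, and some of their tested members passed it through their early level. Ribosomal, glycolytic and respiratory lists lie at 2.27, 2.11 and 1.94 under TMM and at 0.16, -0.19 and -0.15 under spike-in scaling.

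The classes differed in gene structure, which the sorting did not use. In the Ensembl annotation of the BDGP6 assembly, the early-only genes had a median of 2 exons and 33.3% had a single exon. The late-only genes had a median of 5 exons and 10.3% with a single one, and all genes tested late against early a median of 4 and 10.7%. The median spliced length was 1617 bases in the early-only, 2233 in the late-only and 2101 among all tested genes. Genes of a class also lay side by side. Of early-only genes 25.5% had another early-only gene as a direct neighbour, against 5.59% of all tested genes, and of late-only genes 28.0% had a late-only neighbour, against 14.6%. One run of neighbours held the Tweedle genes TwdlM, TwdlP, TwdlB and TwdlL. The genes high at both ends had a median of 4 exons. These shares are descriptions with no test, since neighbours and gene copies are not independent.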

How the data were processed

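RNA of single whole embryos was amplified and sequenced by CEL-Seq, which reads the 3′ ends of polyadenylated transcripts. A gene's count therefore does not scale with transcript length. A single matrix of raw, unscaled counts was deposited for all embryos. CASAVA 1.8, Bowtie2 2.1.0, HTSeq 0.5.4p3 and the build BDGP5 are named per the submitters' processing notes. Whether counting used strand or collapsed molecular tags is not given in the sources used here, so overlapping or antisense genes cannot be told apart, and intervals or floors cover counting error only. Lane and pool come from a deposited sample sheet.

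Library sizes used the 15682 fly gene identifiers; 60.7% of all counts fell on them, 3.29% on 92 spike-ins, 16.6% outside annotated genes, 2.44% on ambiguous places and 17.1% were unaligned. Symbols from a gene name table matched 15002 identifiers. The 680 others, with 9.06% of gene counts, are named by identifier. The annotation given is of another build, so no coordinates or sequences are printed, and it was used for exon numbers and neighbours only.

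CPM were computed from gene counts, as mean ± SD over embryos. Tests were edgeR 4.0.16 quasi-likelihood F-tests (R 4.3.3, limma 3.58.1) with TMM, filterByExpr and Benjamini-Hochberg adjustment over all tested genes, called at 0.05, using only the embryos of the groups compared. SE was taken as the absolute log2 change over the root of the F statistic. A fold against a group at 0 used a floor of 3 counts over the group. Alternatives included DESeq2 1.42.0 and limma voom, other scalings, no filter, and each embryo left out. The fits were tested on simulated data first.

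Named genes are the 10 largest rises and falls late against early among called genes with 50 CPM in the higher group, no overlap of the groups and a proper symbol (CG and CR numbers were passed over), the 6 largest each way for a group's slope at a mean of 50 CPM, the 12 highest such members of the early-only and late-only classes, all 53 genes high at both ends, and up to 4 called genes per list. Genes given as markers, neighbours of a threshold or members of a list beside these were chosen after their values were seen. There were 30 lists, 663 genes of which were in the table. The members and lists were chosen with earlier results of these data known. Each time had 1 embryo, so p-values measure the spread between embryos and the age differences within a group.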

Additional observations from a re-analysis of the deposited data

Results flagged for a closer look

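In groups of 5 and 7 embryos, single values that lay far from all others of their group were looked for among 297 sets of values. There were 39. The cut-off gives about 1 in 20 by chance only for independent, normally spread values. CPM of related genes along a time course are not such values, so no chance rate can be set against the 39.

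In the early group the embryo at 45 min accounted for most of them. It had 6661 genes detected, the fewest of the 5. It held the highest values of dunk (441 CPM), SNCF (486 CPM), halo (486 CPM), Elba2 (359 CPM), slam (549 CPM), Nin (516 CPM), oc (36.3 CPM), kni (28.8 CPM) and Sxl (396 CPM). It held the lowest of zpg (162 CPM), CG5151 (28.0 CPM) and Tsp66E (61.8 CPM). The embryo at 0 min was high for spd-2 (186 CPM) and pch2 (154 CPM), the one at 30 min for HmgZ (13.8 CPM), and the one at -15 min was low for Irp-1B (102 CPM).

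In the late group the embryo at 1260 min stood apart most often. It was high for ImpL1 (528 CPM), Hsp68 (273 CPM), Spn88Ea (825 CPM), spz (200.2 CPM), dl (191 CPM), inaE (122 CPM), ebd1 (111 CPM), Gadd45 (142 CPM), Eip78C (85.8 CPM), CycB3 (13.5 CPM) and Cdc6 (11.1 CPM). The embryo at 1290 min was high for Akr1B (523 CPM), Got2 (312 CPM), Irp-1B (179 CPM) and CycB (22.6 CPM). The one at 1335 min was high for TwdlM (19097 CPM), TwdlB (11452 CPM) and Cyp18a1 (118 CPM). Pgk (211 CPM) was high and P32 (13.6 CPM) low at 1305 min, Sply (114 CPM) was high at 1320 min and ple (404 CPM) at 1245 min.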

How the results depend on the processing

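No paired analysis was possible because each embryo is a separate animal and replicate numbers only name embryos. Late against early, rises and falls were 2012 and 4470 under spike-in scaling; rises were 5264 with no filter, and falls 4031 under total counts. Leaving out 1 embryo gave 2667 to 3383 rises and 1641 to 1984 falls. DESeq2 called 3152 and 2220, limma voom 3167 and 2289. Mid against early, spike-in scaling gave 1202 and 3493, and total counts 2632 falls; DESeq2 size factors moved the share of rises among calls from 60.1% to 48.4%. Late against mid they were 1580 and 2919, with 3029 falls under total counts and 4597 rises with no filter. For 180 to 225 against 60 to 105 min, rises and falls were 41 and 37 with spike-ins, 237 and 127 with no filter, and 0 and 0 without the shallow library. For 1125 to 1230 against 495 to 615 min, rises were 498 with spike-ins and 3429 with no filter, and 2218 with 1191 falls without the shallow, 540 and 1200 min libraries, an alternative chosen after seeing the data, as were total counts and leaving out 405 min. Falls within the early group were 632 with spike-ins; leaving out 1 embryo gave 0 to 56 rises and 2 to 277 falls, with 123 falls without the embryo at 0 min and 137 without that at 15 min. Within the late group 1 gene fell with no filter, and 0 to 0 were called with 1 embryo left out. Early-only genes numbered 84 at 50 CPM, 212 with absence under 0.5 CPM, 110 with absence in every embryo and 204 on TMM-scaled CPM. Late-only genes numbered 550 at 50 CPM. Genes high at both ends numbered 127 at 25 CPM, 15 at 100 CPM, 12 at 50 CPM in every embryo, 22 under 5 CPM and 102 under 20 CPM between. With 1 embryo left out the classes held 334 to 397, 1231 to 1351 and 52 to 57 genes. His3.3B, a histone gene, reversed to a log2 of -0.57 under spike-ins from 1.58. The causes were not tested. Depth limits genes of few counts: 1 CPM is about 1 to 3 counts per library.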

Other observations

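lncRNA:roX1, an RNA of the dosage compensation complex of males, had 15.1, 28.7 and 818 CPM as lowest, median and highest late values and a middle mean of 1168 ± 241 CPM. The labels give no sex. Obp44a, an odorant-binding protein gene, had 618, 1140 and 2393 CPM as lowest, median and highest late values and 1.64 CPM on average in the middle. Obp56d ranged from 15.1 to 987 CPM late.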
